A study of Homo sapiens with 6 samples.

Results

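Binding sites of the splicing protein USP39 were examined in the genes that encode the protein parts of the spliceosomal small nuclear ribonucleoproteins (snRNPs). The genes came from a list of 45, grouped by particle: 7 for U5, 5 for U4/U6, 3 specific to the U4/U6.U5 tri-snRNP, 7 for the LSm ring, 3 for U1, 13 for U2 and 7 for the Sm ring. A site was taken for a gene when its central base lay in the gene's span, on the strand that held most of the sites in that span. This gave 379 sites in 40 of the 45 genes, out of 34781 sites in the whole list, or 1.09%.

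The list came from iCLIP2, in which UV light joins a protein to the RNA it touches and reverse transcription marks the place. Wild-type cells of the established human embryonic kidney line HEK293T were irradiated at 254 nm, and USP39 was pulled down with an anti-USP39 antibody. The labels describe 6 libraries in 2 groups, a low and a high region of the membrane, both cut at sizes over that of USP39, with 3 replicates each. The UV-free control that the design mentions is not analysed here. The deposited file is a merged list with positions only, each site 5 nt wide, so the depth behind a site is unknown, the membrane regions cannot be compared, and no value below has a replicate error or a test. RNA abundance was not measured, so a gene with more sites may be a gene with more RNA; the part of expression in these counts was not tested.

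The spliceosome removes introns with the help of snRNPs, each a small nuclear RNA wrapped in proteins. A ring of Sm proteins sits on the U1, U2, U4 and U5 RNAs, and a ring of LSm proteins on U6. U1 reads the 5′ splice site and U2 the branch site. The U4/U6.U5 tri-snRNP, to which USP39 belongs, then joins and brings in the RNAs that form the active site. USP39 has the fold of a ubiquitin-specific protease without its catalytic activity. The results below concern the RNAs made from the genes of these proteins, not contacts between the proteins.

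Sequence could be read at 17 of the 379 sites, those within the RefSeq windows that run from 250 nt before to 50 nt after a gene start (build GRCh38.p14; 39 of the 45 genes have an entry). The readable sites of SNRPD3, at 383 nt from the 5′ end of the span, and of LSM5, at 4903 nt, are not shown. They lie in the window of a start other than the 5′ end of the span, and whose start it is was not traced. Of the 20 member sites within 100 nt of the 5′ end of the span, 15 were readable. Those in SNRPD1, SF3B3, SF3B6 and PRPF6 were not. The 15 are shown, because such sites recurred among the Sm genes and some LSm and U2 genes. Each is written 5′ to 3′ on the strand of the site, with the 5 nt of the site in capitals.

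SNRPB, chr20:2470773-2470802, minus strand: tttacgtggtgcTGCATttccggtagcggc
SNRPB, chr20:2470741-2470770, minus strand: cgggaaatcggcTGTGGgagagaggctagg
SNRPE, chr1:203861632-203861661, plus strand: gcgggtgtgctcTTTGTgaaattccaccat
SNRPE, chr1:203861639-203861668, plus strand: tgctctttgtgaAATTCcaccatggcgtac
SNRPE, chr1:203861597-203861616, plus strand: ttCTTTAttccggaagttgc
SNRPF, chr12:95858950-95858979, plus strand: tcctgtttggcgGCCATttctcttgaaact
SNRPF, chr12:95858959-95858988, plus strand: gcggccatttctCTTGAaactgcggctcgg
SNRPG, chr2:70293703-70293732, minus strand: caagacgccgggCCTACagcgggagcgtga
SNRPG, chr2:70293673-70293702, minus strand: ggaaagccgtgcGTTGCgttccaaggcatc
SNRPG, chr2:70293668-70293697, minus strand: gccgtgcgttgcGTTCCaaggcatctgtga
LSM3, chr3:14178830-14178859, plus strand: gagaggcgggaaAGGGCgcagggtttgaaa
LSM3, chr3:14178841-14178866, plus strand: aagggcgcagggTTTGAaacatggcg
LSM7, chr19:2328568-2328597, minus strand: gtgcctgcgaagAGCCAcacggcgcgacaa
SF3B5, chr6:144095528-144095557, minus strand: ctagagcggcgaGTTGTtacctgcgtcctc
SNRPA1, chr15:101295183-101295212, minus strand: ctttccacagcgCGGGGgaacgggaggctg

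The central base of the site was a T (U in the RNA) in 11 of the 17 readable sites (64.7%, Wilson 95% interval 41.3% to 82.7%). Over all 978 readable sites of the list the share was 68.4%. It was 20.4% over all 5-base windows in the first 50 bases after gene starts. The members' readable sites thus had a share of central T near that of the list as a whole, with a wide interval. Over all 5 bases of the site, T made up 35.3% in members, 49.1% in all readable sites and 20.3% in the 5-base windows. The run TTT lay within 4 of the 17 sites (23.5%), 40.2% of all readable sites and 3.57% of all such 5-base windows. It was read on the strand of the site or gene only. Readable sites could lie before or after a gene start, whereas these 5-base windows all lay after it. The part of this difference in place in the shares of central T, of T bases and of TTT was not tested. LSM7 and SNRPA1 are examples without any T in the site, as is the first of the LSM3 sites.

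Members had sites more often than coding genes at large. Of the 45 genes, 40 (88.9%, Wilson interval 76.5% to 95.2%, counting error only) had at least 1 site, beside 23.1% of 20037 protein-coding genes counted by the same rule. At least 3 sites were found in 30 members and in 12.8% of coding genes, at least 5 in 18 members and 8.89%, and at least 10 in 7 members and 4.61%. The median member had 3 sites. Among genes with a site the medians were 4 for members and 3 for coding genes, and 0.253 and 0.127 sites per kb of span. Members with a site were also shorter, with a median span of 16893 nt beside 28404 nt. Sites were unevenly spread: PRPF8, SNRNP70, SF3B3 and SF3B1 together held 202 of the 379 sites (53.3%).

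**Figure D1:**
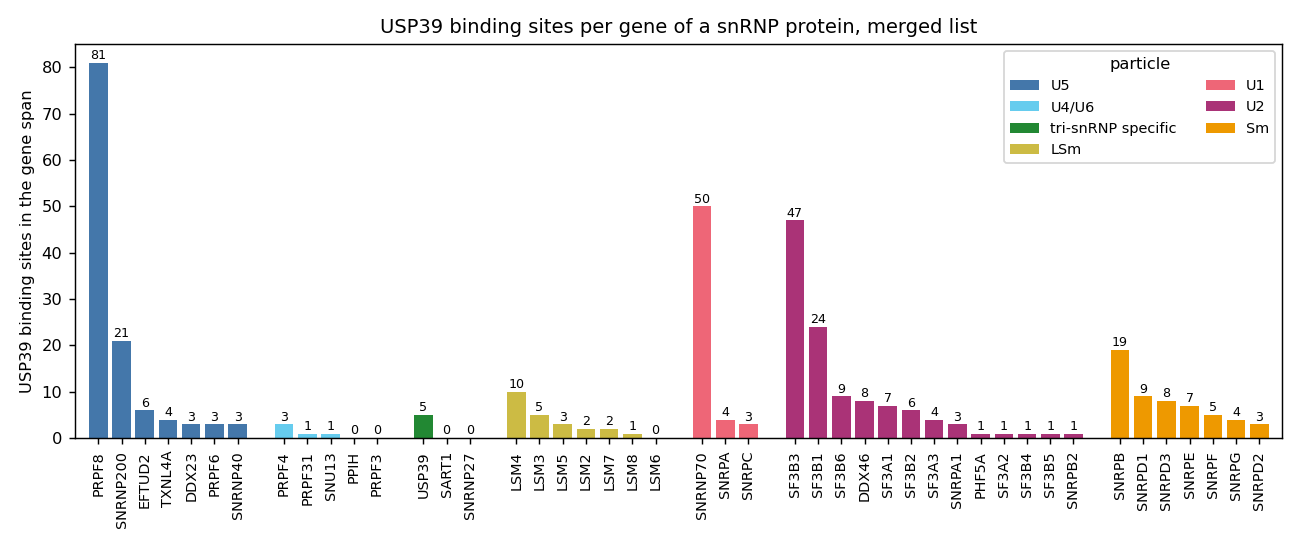
Number of USP39 binding sites (vertical axis) in the span of each of the 45 genes, coloured by particle and ordered by number within it. PRPF8 (81), SNRNP70 (50) and SF3B3 (47) stand above all others, and 5 genes have 0.

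**Figure D2:**
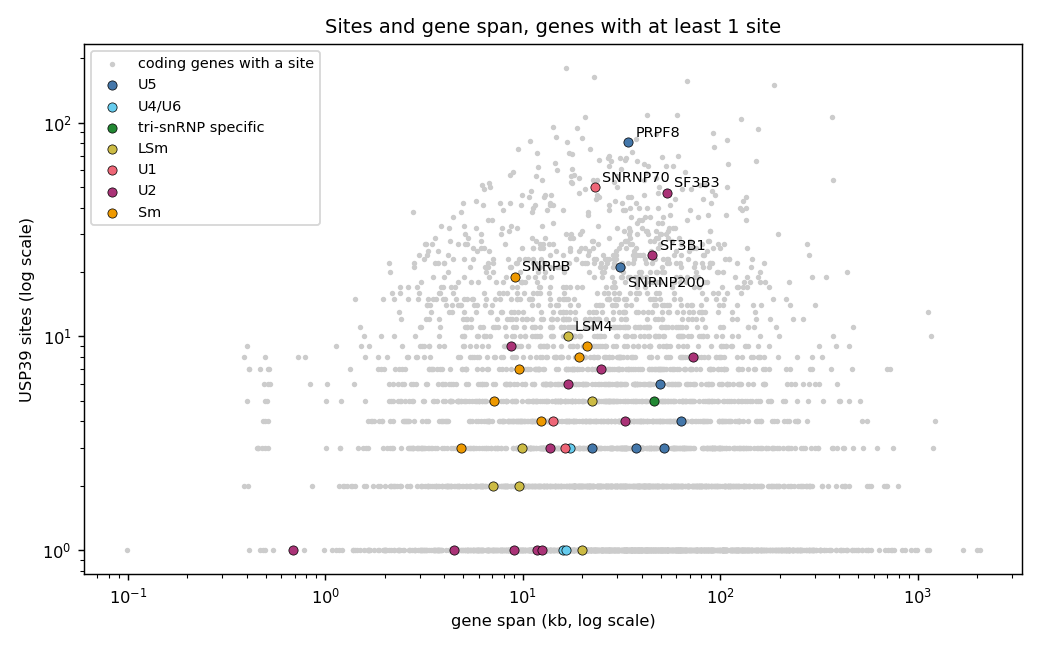
Sites per gene (log scale) against gene span in kb (log scale) for members (coloured by particle) and for the 4628 coding genes with a site (grey). Members lie within the cloud of coding genes; PRPF8 ranks 20 by number of sites.

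The particles differed in how many sites their genes carried. U5 genes held 121 sites in 7 of 7 genes (0.418 per kb of span), U2 genes 113 in 13 of 13 (0.368 per kb), U1 genes 57 in 3 of 3 (1.06 per kb) and Sm genes 55 in 7 of 7 (0.657 per kb). LSm genes held 23 sites in 6 of 7 genes (0.227 per kb). The U4/U6 genes held 5 sites in 3 of 5 genes (0.0477 per kb), and the tri-snRNP-specific genes 5 sites in 1 of 3 genes (0.0657 per kb). Among the particles, the genes of these groups were thus the thinnest in sites. The shares of their genes with a site, 60% and 33.3% of few genes, were not below the 23.1% of coding genes. Single genes decided several totals. Without PRPF8 the U5 genes held 40 sites, without SNRNP70 the U1 genes 7, without SF3B3 the U2 genes 66, without LSM4 the LSm genes 13 and without SNRPB the Sm genes 36. By the median gene, Sm came first with 7 sites, followed by U5, U1 and U2 with 4 each, LSm with 2, U4/U6 with 1 and the tri-snRNP-specific genes with 0. With sites within 50 nt joined this order did not hold: the medians were 4 for U1 and U2, 3 for Sm and U5, 2 for LSm, 1 for U4/U6 and 0 for the tri-snRNP-specific genes.

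Among U5 genes, PRPF8 encodes the central scaffold of the spliceosome's active site. It carried 81 sites between chr17:1650690 and chr17:1684560 on the minus strand, 2.37 per kb, and 264 coding genes had more per kb. Its sites formed a pair of blocks. The first ran from 310 to 11011 nt after the 5′ end of the span with 43 sites, and the second from 23158 nt to the 3′ end with 38. The 12147 nt between them held none. The densest 1000 nt held 11 sites, from 3183 to 4107 nt. At the 3′ end, 6 sites lay within 202 nt of the end of the span, the last of them at chr17:1650690-1650694.

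SNRNP200 encodes the helicase that unwinds U4 from U6. It had 21 sites, from 6674 nt after the 5′ end to 523 nt before the 3′ end, with at most 5 in any 1000 nt. In contrast to PRPF8, it had 0 sites in the first 10% of its span. EFTUD2, the GTPase of U5, had 6 sites, all in the part beyond 35667 nt of its 49498 nt, and 3 of them in the last 10%. TXNL4A, a small thioredoxin-fold protein, had 4 sites as 2 close couples in the 3′ part, at 56246 and 56330 nt and at 60307 and 60327 nt of 63124 nt. Its span was also the one with a site on the other strand, a single one. DDX23, the helicase that hands the 5′ splice site from U1 to U6, PRPF6, which bridges U5 and U4/U6, and the WD-repeat protein SNRNP40 had 3 sites each. PRPF6 had 2 of its sites in the first 10% of the span, at 84 and 3777 nt.

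The U4/U6 genes carried few sites beside the U5, U2, U1, Sm and LSm genes. PRPF4 had 3 sites, at 15190, 16266 and 16448 nt of 17248 nt, all in the 3′ part. PRPF31, which binds the U4 RNA with SNU13, had 1 site and SNU13 itself had 1. PRPF3, the partner of PRPF4, and PPIH, a peptidyl-prolyl isomerase of the same particle, had 0. Among the tri-snRNP-specific genes, SART1 and SNRNP27 had 0 sites. USP39, the gene of the immunoprecipitated protein, had 5 on the plus strand, at chr2:85621571-85621575, chr2:85623726-85623730, chr2:85645074-85645078, chr2:85648761-85648765 and chr2:85649008-85649012. Of these, 3 lay in the last 10% of the 46423 nt span, and no pair was within 50 nt. A count of 0 in a merged list with unknown depth does not show that an RNA was not bound.

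LSm genes encode the ring that holds the 3′ end of U6. LSM4 led with 10 sites, 6 of them between chr19:18307092 and chr19:18307555, in the last 10% of its span. LSM3 had 5 sites, including neighbours at 28 and 39 nt and at 5136 and 5141 nt. LSM5 had 3 sites, LSM2 and LSM7 had 2 each and LSM8 had 1. Both LSM7 sites lay at the start, at 4 and 159 nt. LSM6 had 0. Sites thus gathered near the 3′ end in LSM4, and at the start in LSM7 and in part in LSM3.

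Among U1 genes, SNRNP70 (U1-70K, which contacts the first stem-loop of U1) had 50 sites on the plus strand, 2.16 per kb. They lay unevenly along the gene. From 15049 to 19214 nt lay 33 of the 50, while the first 15000 nt held 11. The densest 1000 nt, from 16592 to 17454 nt, held 14 sites, between chr19:49102040 and chr19:49102906. SNRPA, the A protein of U1, had 4 sites, all beyond 8284 nt of 14187 nt. SNRPC, the C protein of U1, had 3, a couple at 410 and 415 nt and a site 257 nt before the 3′ end.

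**Figure D3:**
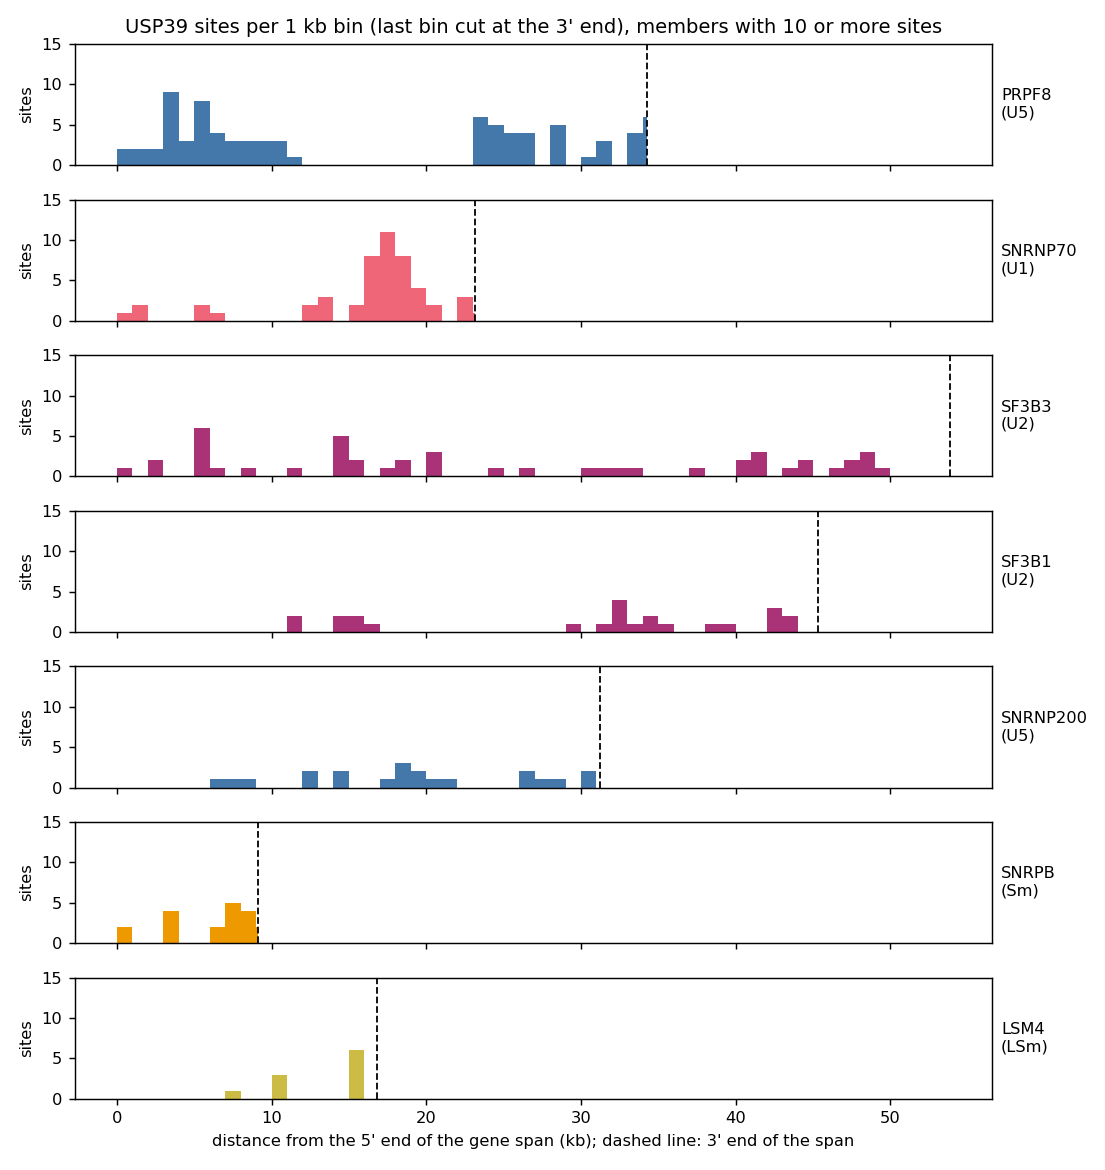
Sites per 1 kb bin (vertical axis) against distance from the 5′ end of the span in kb, for the 7 members with 10 or more sites; the dashed line is the 3′ end and the last bin is cut there. PRPF8 shows 2 blocks with an empty stretch of 12147 nt between them, and SNRNP70 a peak between 15 and 20 kb.

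U2 genes include the SF3A and SF3B complexes, which hold U2 on the branch site. SF3B3, a beta-propeller scaffold, had 47 sites on the plus strand, scattered from 62 nt after the 5′ end to 4697 nt before the 3′ end. Only 1 of them lay in the last 10% of the span. Of the 47 sites, 6 also lay in snoRNA genes nested in SF3B3, 3 in SNORD111B (chr16:70529523-70529544) and 3 in SNORD111 (chr16:70538006-70538074). These may belong to the snoRNAs rather than to the host RNA, which cannot be told apart here. SF3B1, the protein that clamps the branch helix and a frequent target of mutation in myeloid disease, had 24 sites, the first at 11221 nt, and a stretch of 13447 nt without a site from 16544 to 29991 nt.

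The U2 genes other than SF3B3 and SF3B1 had between 1 and 9 sites. SF3B6 (p14), which lies at the branch site, had 9 sites in 8741 nt. Of these, 2 lay within 100 nt of the start and 5 in the last 10% of the span. SF3B2 had 6 sites, 4 of them in the last 10%, whereas SF3A3 had 4 sites, all in the first 9373 nt of 33048 nt. DDX46, the helicase that remodels U2 for branch-site binding, had 8 sites over 72343 nt, and SF3A1 had 7. SNRPA1, which binds U2 RNA together with SNRPB2, had 3. A single site was found in each of SF3A2, SF3B4, SF3B5, PHF5A and SNRPB2. SF3B5 spans 690 nt, so its 1 site, at 31 nt, gave 1.45 per kb.

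Sm genes encode the ring common to U1, U2, U4 and U5. SNRPB, which makes SmB and SmB′, had 19 sites in 9148 nt, 2.08 per kb. They fell in groups: 2 at the start (2 and 34 nt), 4 from 3067 to 3147 nt, 4 from 6898 to 7025 nt, 5 from 7754 to 8053 nt and 4 from 8855 nt on. Of the group of 5, 3 lay in the nested snoRNA gene SNORD119 (chr20:2462993-2463038). SNRPD1 had 9 sites, SNRPD3 had 8, SNRPE 7, SNRPF 5, SNRPG 4 and SNRPD2 3.

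Most Sm genes had a site near the gene start. SNRPB, SNRPD1, SNRPE, SNRPF and SNRPG, 5 of 7, had a site in the first 100 nt of the span, 11 sites together. In SNRPE they were at 3, 48 and 55 nt, in SNRPF at 13 and 22 nt and in SNRPG at 23, 53 and 58 nt. SNRPD3 had its first site at 383 nt and SNRPD2 at 3749 nt. The start used by most of a gene's RNA can lie inside the span, so these distances need not be distances from it. The SNRPD3 site lay in the RefSeq window of another annotated start, of this gene or a different one. For comparison, 3.24% of all coding genes, and 14.0% of those with a site, had a site in the first 100 nt. Of coding genes as long as the Sm genes (4863 to 21207 nt), the shares were 4.31% of all and 18.3% of those with a site. These genes were not matched on number of sites: the median was 7 in Sm genes and 3 in all coding genes with a site. The part of this in the shares was not tested. Over all members, 12 of 45 had a site in the first 100 nt, the other 7 being LSM3, LSM7, SF3B3, SF3B5, SF3B6, SNRPA1 and PRPF6. The distance of 100 nt was chosen after the positions were seen; within 50 nt it was 4 Sm genes and 7 members, beside 2.04% of coding genes.

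In the last 10% of the span the Sm genes had few sites. Of their 55 sites, 4 (7.27%, Wilson interval 2.86% to 17.3%, counting error only) lay in the last 10% of the span. All 4 were in SNRPB, and the other 6 genes had 0 of 36. In coding genes with at least 3 sites 23.6% of the sites lay there, and 17.7% in those as long as the Sm genes, of which 39.3% had no site in the last 10%. This depended on the stretch taken: a further 13 Sm sites (23.6%) lay in the 10% before it, so the last 20% held 17 of 55 (30.9%), beside 35.3% in coding genes. The last 1000 nt held 10.9% of the Sm sites, beside 14.2%. Both the 35.3% and the 14.2% are for coding genes of any length with at least 3 sites. The Sm genes were shorter (median span 9554 nt, beside 24115 nt in all coding genes), so 1000 nt is a larger part of their spans. The first 10% held 13 of the 55 Sm sites (23.6%, Wilson interval 14.4% to 36.3%). It held 10.9% in all coding genes with at least 3 sites and 10.5% in those of like length. Of the 13 Sm sites, 11 were those in the first 100 nt given above, so this share is not a separate observation. A span covers every RefSeq transcript of a gene, so the end used by most of its RNA can lie inside the span, and the table used gives no exons.

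**Figure D4:**
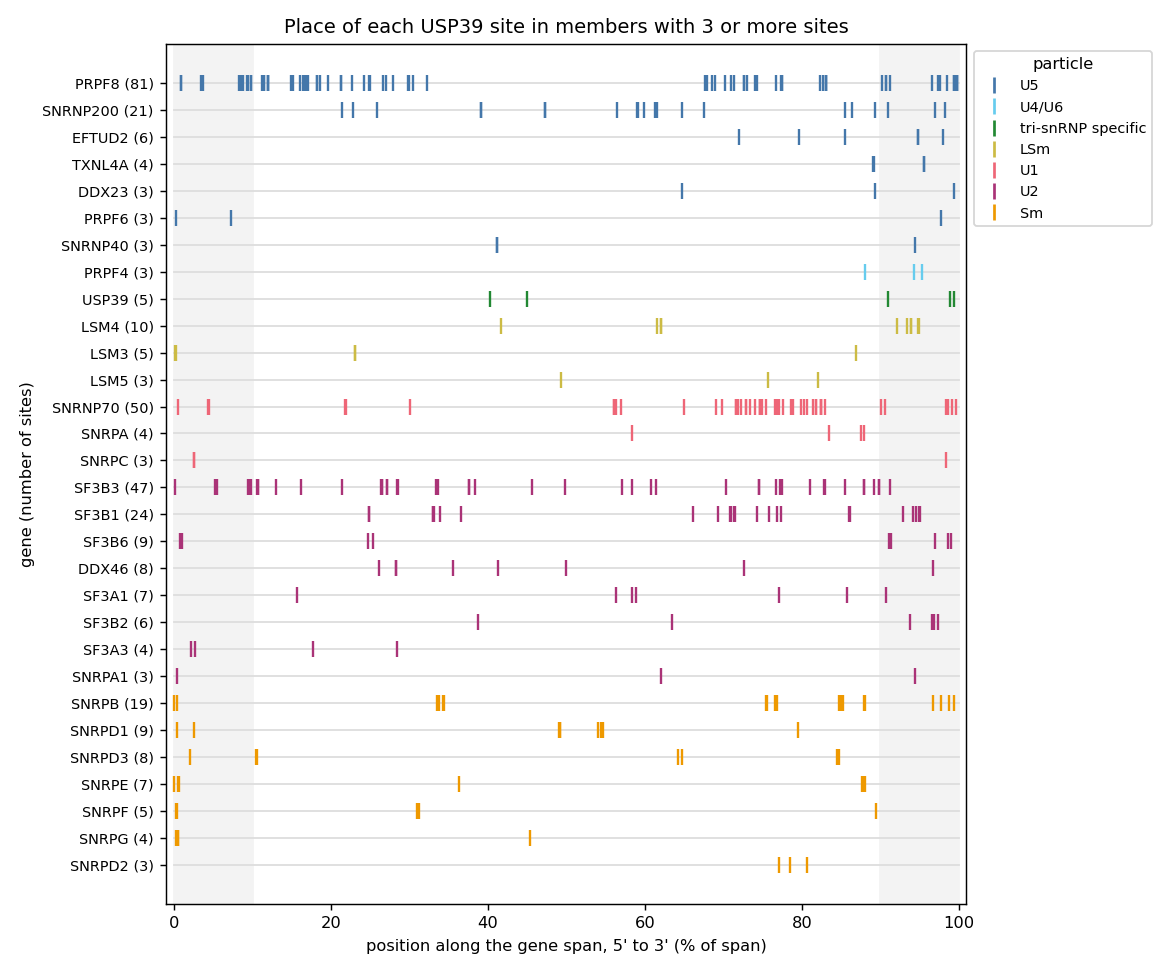
Each tick is a USP39 site, placed by its position along the span from 5′ to 3′ (% of span), for the 30 members with 3 or more sites, with the number of sites in brackets; grey bands mark the first and last 10%. Of the Sm genes other than SNRPB, all but SNRPD2 have ticks in the first band, and none has a tick in the last, while EFTUD2, LSM4 and SF3B2 have 3, 6 and 4 there.

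Over the 30 members with at least 3 sites, 44 of 367 sites (11.99%, Wilson interval 9.05% to 15.7%) lay in the first 10% and 65 (17.7%, Wilson interval 14.1% to 21.9%) in the last 10%. With each gene weighted equally the shares were 17.1% and 22.998%, beside 12.4% and 26.3% in coding genes weighted the same way. The last 10% held 25 of 121 U5 sites (20.7%), 18 of 108 U2 sites (16.7%), 7 of 57 U1 sites (12.3%) and 6 of 18 LSm sites (33.3%). Without SF3B3 the U2 share was 27.9% (17 of 61), and all 6 LSm sites there were in LSM4. A site in the last 10% was missing in 10 of the 30 members (33.3%) and in 34.1% of coding genes with at least 3 sites.

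**Figure D5:**
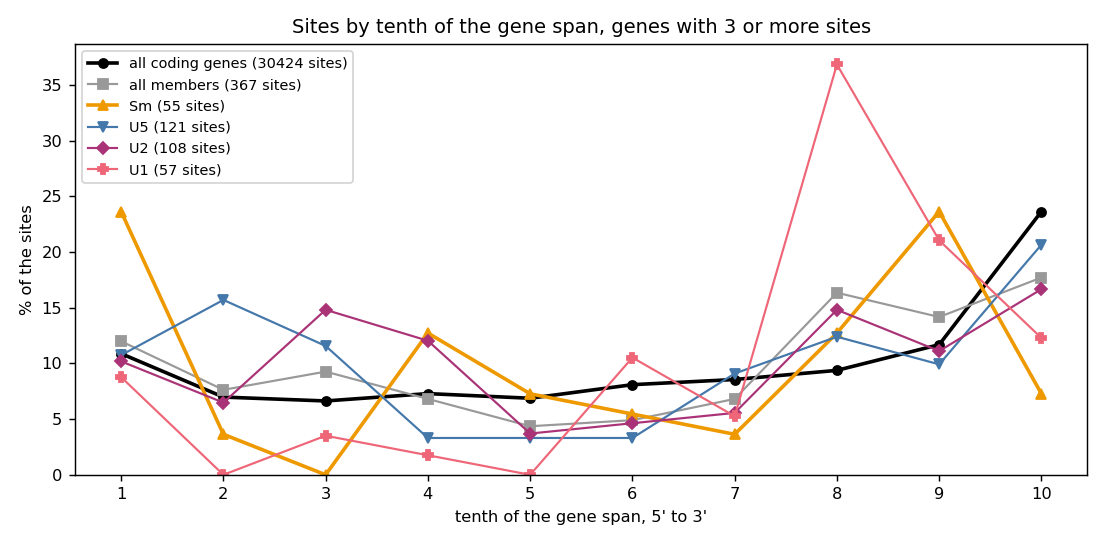
Share of sites (%) in each of 10 equal parts of the span from 5′ to 3′, for all coding genes with 3 or more sites (black), all members and the Sm, U5, U2 and U1 genes. Coding genes are highest in the last part (23.6%), the Sm genes in the first and the ninth (23.6% each), and the U1 genes in the eighth (36.8%), where all 21 sites are in SNRNP70.

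Sites of members often lay close together. Of the 367 sites, 167 (45.5%, Wilson interval 40.5% to 50.6%) had another site of the same gene within 50 nt, centre to centre. In coding genes with at least 3 sites it was 36.7%. Among genes with a site, members also had more sites per kb (median 0.253, beside 0.127 in coding genes). The part of this density in the share was not tested. The interval takes sites as independent, but a neighbour counts for both sites and sites cluster in genes, so it can be too narrow. The share was 69.1% in Sm genes (38 of 55), 55.6% in LSm genes (10 of 18), 47.9% in U5 genes (58 of 121), 43.9% in U1 genes (25 of 57) and 33.3% in U2 genes (36 of 108). Without PRPF8 the U5 share was 25.0% (10 of 40) and that of all members 41.6%, and without SNRNP70 the U1 share was 28.6% (2 of 7). Coding genes as long as the Sm genes had 43.1%. The 3 sites of PRPF4, the only U4/U6 gene with at least 3, and the 5 USP39 sites had none within 50 nt. Neighbours 5 nt apart, which abut, occurred 13 times. With sites within 50 nt of each other joined, members had 282 sites, PRPF8 52, SNRNP70 35, SF3B3 39 and SNRPB 10.

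In the spans of members, sites lay almost only on 1 strand. Of the 40 members with a site, 39 had every site on 1 strand, which for members with a single site could not be otherwise. In the 36 that also have a strand in the RefSeq table, the main strand was the annotated one each time. The same shares were not computed over all coding genes, so whether either is particular to members was not tested. Apart from the 9 sites in nested snoRNA genes, 1 site of LSM4 also lay in another gene, LOC105372300.

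Other spliceosomal protein genes, taken from lists of 82, had a site in 44 (53.7%), beside 23.1% of coding genes, with a median of 1. The lists differed as widely as the particles. All 8 genes of proteins that work with U1 had sites (median 18), with 25 in LUC7L3 and 24 each in LUC7L and LUC7L2, whose products act with U1 at the 5′ splice site. Of 11 genes of proteins that work with U2, 10 had sites, led by SF1, the branch-site binding protein, with 46 and U2SURP with 32; U2AF1, which has a near-identical copy in the genome, had 0. In the Prp19 and related list 6 of 15 had a site, with 13 in PRPF19 and 2 in RBM22. The B complex list had 5 of 8, with 7 in PRP4K (PRPF4B) and 5 in UBL5. The assembly list had 10 of 17, with 15 in WDR77, a subunit of the methylosome that modifies Sm proteins, and 9 in STRAP. In the catalytic-step list 2 of 8 genes had a site (25%, near the share of coding genes), with 2 sites in DDX41 and 1 in CDC40. For proteins particular to the minor spliceosome it was 1 of 8 genes (12.5%), RNPC3 with 2 sites. Of 7 paralogs of Sm and LSm genes 2 had a site (28.6%, also near the share of coding genes), LSM14B with 6 and LSM12 with 3. SNRPN, a close paralog of SNRPB, had 0, as had LSM1, LSM10, LSM11 and LSM14A. Several Sm and LSm genes have paralogs or processed copies elsewhere in the genome. How reads that fit several places were treated is not given in the sources used here, so counts in those genes are uncertain.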

How the data were processed

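USP39 iCLIP2 was made from HEK293T cells with 6 libraries (3 low, 3 high membrane region). The submitters' processing notes name FastQC 0.11.9, STAR 2.7.3a, SAMtools 1.10, bedtools 2.29.2, UMI-tools 1.1.2 and GRCh38.p12, without role or order; which program called the sites, with which filters and on which of the libraries, is not given in the sources used here. What the authors deposited is 1 merged BED list whose score is 0 for every site, so depth is unknown.

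Gene spans came from a RefSeq table of GRCh38.p14 (20037 coding genes on chromosomes 1 to 22, X and Y; 45 of 45 members matched). Positions count from the 5′ end of the span by the main strand, plus in a tie. Coding genes that overlap each count a shared site. Place and crowding used genes with at least 3 sites. Sequences are RefSeq promoter windows. Members, lists and thresholds were chosen with earlier results of these data known. Every member is named with its count; position detail was set for members with at least 10 sites, USP39 and those with 0, and 2 genes per other list, and details on other members were chosen after their values were seen. Counting was tested on simulated sites. No significance test was made. The Wilson intervals of shares of sites treat sites as independent, which sites of the same gene need not be. They give counting error only, can be too narrow and are not a test against coding genes. Scripts ran under Python 3.11.15 with pandas 2.3.3, numpy 2.4.6 and, for intervals, scipy 1.17.1; figures were drawn with matplotlib 3.10.9.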

Additional observations from a re-analysis of the deposited data

How the results depend on the processing

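Of 70 values recomputed under alternatives, 55 stayed within 1.5 times the count, or within the 95% interval of the share. This tally does not measure robustness. Several alternatives could hardly move a count, as where a particle had no site in a nested gene. The shares in the 20% stretches, by contrast, were set against the intervals of the 10% stretches. Joining sites within 50 nt took the Sm genes from 55 to 32 sites. Leaving out the gene with most sites gave 40 for U5, 2 for U4/U6, 0 for the tri-snRNP-specific genes, 13 for LSm, 7 for U1, 66 for U2 and 36 for Sm. The first and last 20% of the span held 19.6% and 31.9% of member sites (17.9% and 35.3% in coding genes). With genes weighted equally the first and last 10% held 17.1% and 22.998%. A neighbour was found for 29.7% of sites within 20 nt and 59.9% within 100 nt. Sites in the first 50 nt, chosen after seeing the data, were found in 7 members rather than 12. The score is constant, so no stricter threshold could be tried, and no library could be left out. No paired analysis was possible because the list holds no value per library.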
